A study of Mus musculus with 12 samples.

Results

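Leukaemia inhibitory factor (LIF), its receptor chains, the transcription factor STAT3 that the receptors activate, the suppressors that shut the signal off and the target kinase PIM1 were followed over the estrous cycle in whole mouse uterus. The 10 genes (Lif, Lifr, Osmr, Il6ra, Il6st, Stat3, Socs2, Socs3, Cish and Pim1) were taken by symbol from the 35896 genes of the table, and all 10 were found. The samples were 12 whole uteri from wild-type Swiss Webster females, an outbred stock, aged 8 to 12 weeks, with 3 uteri each in proestrus, estrus, metestrus and diestrus. Every stage shared the strain, genotype, sex, age range and tissue, and no label described a treatment, how the stage was determined or the time of dissection. Polyadenylated RNA was read by 3' TagSeq, which samples transcripts close to their 3' ends. Uteri are named by stage and by the number in their labels.

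LIF is a secreted cytokine that the mouse uterine gland makes in response to estrogen and that the embryo needs to implant. It binds the LIF receptor chain (Lifr), which pairs with the shared signalling chain gp130 (Il6st). Oncostatin M and interleukin 6 use the same gp130 chain through their own chains, Osmr and Il6ra. Kinases of the JAK family attached to these chains phosphorylate STAT3, which moves to the nucleus and switches on genes that include Socs3, whose protein binds gp130 receptors and stops them, and Pim1, a serine/threonine kinase of cell survival and growth. CIS (Cish) and SOCS2 are relatives of SOCS3 best known as brakes on STAT5 signalling from the prolactin and growth hormone receptors.

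To show where STAT proteins could meet the DNA of these genes, the promoter windows of RefSeq on GRCm38.p6, running from 250 bases before a transcription start to 50 bases after it, were searched for TTCNNNGAA, a STAT-type motif that reads the same on both strands. The motif was found for 2 of the 9 genes with a window, Socs3 and Cish, while 8.3% of all 32851 windows hold it. Lifr and Pim1 had a second window each, also without a match, so that the share of genes and the share of windows are unlike measures. Socs2 had no entry. The estrogen response element, searched in the same windows, was found in none of the members' windows and in 0.07% of all windows. The 2 promoters with a match and the upstream window of Pim1, the member with the smallest p over the stages, are shown 5′ to 3′. They run up to the first 20 bases from the start on, with the matches in capitals. They lie at chr11:117969347-117969616 (minus strand) for Socs3, chr9:107296409-107296678 (plus strand) for Cish and chr17:29490535-29490804 (plus strand) for Pim1.
Socs3: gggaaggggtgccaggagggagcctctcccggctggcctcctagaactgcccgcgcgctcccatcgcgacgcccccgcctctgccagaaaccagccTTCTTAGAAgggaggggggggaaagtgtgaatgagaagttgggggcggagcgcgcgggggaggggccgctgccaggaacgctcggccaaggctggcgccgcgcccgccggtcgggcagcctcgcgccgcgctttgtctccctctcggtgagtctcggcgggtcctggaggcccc
Cish: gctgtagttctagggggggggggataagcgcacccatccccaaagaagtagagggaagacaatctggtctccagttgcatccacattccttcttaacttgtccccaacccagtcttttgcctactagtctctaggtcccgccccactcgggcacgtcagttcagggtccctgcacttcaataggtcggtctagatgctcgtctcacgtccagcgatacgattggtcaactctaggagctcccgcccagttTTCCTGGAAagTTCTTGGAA
Pim1: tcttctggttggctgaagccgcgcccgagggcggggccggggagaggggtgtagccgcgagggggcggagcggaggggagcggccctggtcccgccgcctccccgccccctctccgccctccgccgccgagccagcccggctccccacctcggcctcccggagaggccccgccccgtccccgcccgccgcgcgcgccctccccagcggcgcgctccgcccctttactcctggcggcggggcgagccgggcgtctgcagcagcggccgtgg
The Socs3 match begins 154 bases before the start. Of the 2 Cish matches, 1 begins at the start itself and the other 11 bases after it. A match is a run of letters and not a measured binding site.

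The libraries held 1652841 to 2200563 estimated counts. By library totals, without TMM factors, 3 counts, the limit that a count of 0 allows, stood for 1.37 to 1.83 CPM. The CPM values below are counts scaled to a common library size, with TMM factors. CPM counts 3' ends and is compared here between stages for each gene, not between genes. The metestrus uteri differed more among themselves than those of other stages, and metestrus replicate 7 stood apart with a summed level of 924 CPM for 6 gland markers against 135 CPM or less in each of the other uteri. All listed markers of uterine stroma, smooth muscle, epithelium and endothelium were detected in the series, and each of these summed lists was detected in every uterus. The summed macrophage list was 667 to 728 CPM in estrus against 252 to 322 in proestrus, 362 to 563 in metestrus and 348 to 440 in diestrus. Of its 8 genes, 7 passed the F test over the stages. Among all genes tested, 23.2% passed, which is the background for this list and those below. The summed epithelial list was 1750 to 2380 CPM in proestrus and 1580 to 1980 in estrus against 692 to 1270 in metestrus and 688 to 855 in diestrus, and 10 of its 10 genes passed. Immediate early genes, listed as a possible sign of handling, summed to 436 to 653 CPM in estrus and to 232 to 472 CPM in the other stages. Of the 9 tested, 3 passed, and the parts of handling and of the stage itself were not tested. The oviduct list summed to 41.2 to 52 CPM in estrus and to 6.92 to 30.9 CPM in the other uteri, and its 1 tested gene passed. The smooth muscle list summed to 8230 to 10600 CPM in estrus, 6200 to 8770 in proestrus, 5200 to 7340 in metestrus and 6140 to 6450 in diestrus, and 3 of its 6 genes passed. Stroma markers summed to 13700 to 13900 CPM in proestrus, 11000 to 11500 in estrus and 9270 to 12900 in diestrus. In metestrus replicates 5, 6 and 7 their sums were 7020, 15300 and 13400 CPM, and 3 of the 8 genes passed. The neutrophil list stayed between 9.54 and 77.8 CPM and the ovary list between 13.5 and 29.7 CPM, the eosinophil gene Epx and the ovarian gene Fshr were at 0 in every uterus, and the adipocyte list reached at most 4.57 CPM. Fewer cells of a type and less RNA per cell cannot be told apart in whole tissue, and the part of these cell mixtures in the results was not tested.

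Over the 4 stages, 5 of the 9 members that passed the filter on low counts differed in edgeR's F test (adjusted p under 0.05, with Benjamini-Hochberg adjustment over 12052 genes), against 23.2% of all genes tested. They were Pim1, Osmr, Il6ra, Socs2 and Lifr. The members were chosen with earlier results of these data known, so their share beside that of all genes is a description only. The mean was highest in estrus for 6 of the 9, in metestrus for Lifr and Il6st and in proestrus for Socs2, and in no case in diestrus. Among all genes tested, 33.3% had their highest stage in estrus and 25.5% in diestrus. Among all genes that passed the F test, these shares were 46.8% and 24.6%. Of the members that were highest in estrus, Pim1, Osmr and Il6ra passed the F test, and Stat3, Socs3 and Cish did not. Lif itself was too low for the filter. The plot of CPM by uterus shows all 10.

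**Figure D1:**
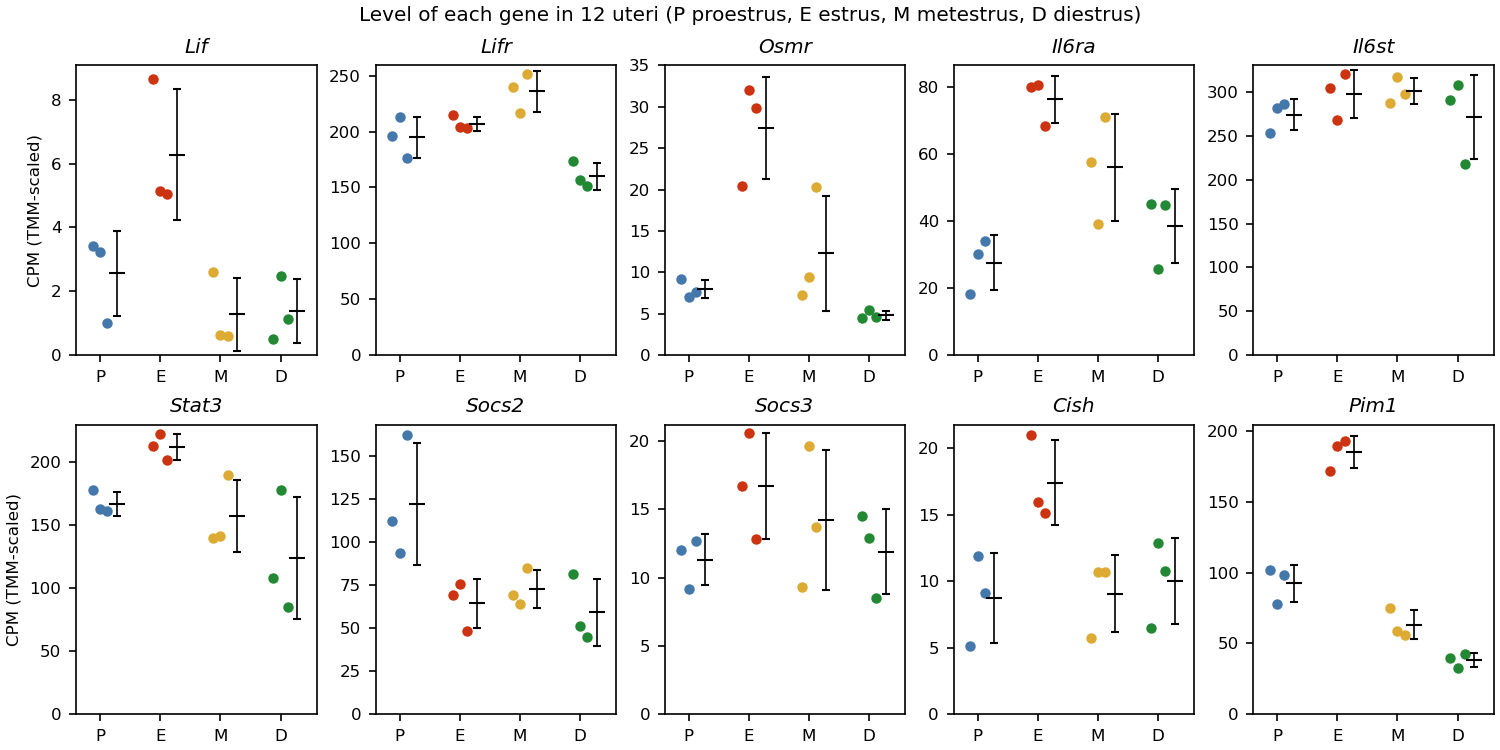
CPM (TMM-scaled, vertical axis from 0) of the 10 genes in each uterus, by stage; points are uteri and the black mark with its bar is the mean ± SD of 3. The estrus uteri lie above all others for Pim1, Osmr, Lif, Cish and Stat3, and the proestrus uteri lie above all others for Socs2. For Osmr the closest values were 20.4 CPM in estrus and 20.3 CPM in metestrus. The share of all genes with stages separated in this way was not computed, so these separations have no background.

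Lif (chromosome 11, 4257557 to 4272514, GRCm38) was the only ligand among the members and the lowest of them in counts. Its level was 3.42, 3.23 and 1.01 CPM in proestrus, 8.66, 5.15 and 5.04 in estrus, 2.59, 0.631 and 0.596 in metestrus and 0.499, 2.47 and 1.13 in diestrus. Every estrus uterus was above every other uterus. The summed gland list was also higher in estrus, at 87.8 to 97.2 CPM, than in proestrus, at 43.4 to 45.3 CPM, and its 3 tested genes passed the F test; it was 35.3, 55.5 and 924 CPM in metestrus and 40.2 to 135 CPM in diestrus, and its part in the Lif level was not tested. The Lif values rest on 34 counts over the estrus uteri, 14 over proestrus, 7 over metestrus and 8 over diestrus. The count ratio of estrus was 2.44 over proestrus (95% exact interval 1.28 to 4.93), 4.54 over metestrus (1.98 to 12.1) and 4.44 over diestrus (2.02 to 11.1), intervals that cover counting error only. An exact permutation test of the one-way F statistic of log2(CPM + 1) over all partitions of the uteri into groups of 3, chosen after these values were seen, gave a p of 0.0268. It lost the 0.05 level without estrus replicate 3 (exact permutation p 0.0927), metestrus replicate 6 (0.0538), metestrus replicate 7 (0.0529) or diestrus replicate 5 (0.0546). With no filter, the edgeR F test of Lif had an adjusted p of 0.0628, and the change from estrus to diestrus was -2.08 on the log2 scale with an adjusted p of 0.0467.

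Of the receptor chains, Osmr, Il6ra and Lifr passed the F test and Il6st did not. Osmr (chromosome 15, 6813577 to 6874969), the oncostatin M receptor chain, was at 9.13, 7.01 and 7.6 CPM in proestrus, 20.4, 32 and 29.8 in estrus, 7.26, 9.5 and 20.3 in metestrus and 4.5, 5.44 and 4.5 in diestrus. The estrus uteri were above all others, but metestrus replicate 7, at 20.3 CPM, came close to the lowest of them. Osmr rose 3.46-fold from proestrus to estrus (log2 1.79 ± 0.34, standard error, adjusted p 0.00399) and was 5.63-fold lower in diestrus than in estrus (log2 -2.49 ± 0.37, adjusted p 0.000438). From estrus to metestrus it fell 2.24-fold (log2 -1.16 ± 0.33, adjusted p 0.047). That last call was lost in 13 of 18 alternatives, with an adjusted p of up to 0.161, and without metestrus replicate 7 the fall was -1.69 with an adjusted p of 0.00577. In order of level, estrus was followed by metestrus (12.3 ± 6.96 CPM, SD, n = 3), proestrus (7.92 ± 1.09) and diestrus (4.82 ± 0.538), and of these neighbours neither metestrus and proestrus nor proestrus and diestrus differed past the threshold (adjusted p 0.359 and 0.352).

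Il6ra (chromosome 3, 89864059 to 89913196), the interleukin 6 binding chain, was at 18.3, 30.2 and 34 CPM in proestrus, 79.8, 80.6 and 68.2 in estrus, 57.6, 39.1 and 70.9 in metestrus and 44.9, 25.7 and 44.7 in diestrus. The estrus uteri were above all proestrus and diestrus uteri, and metestrus replicate 7 overlapped with them. Il6ra rose 2.75-fold from proestrus to estrus (log2 1.46 ± 0.27, adjusted p 0.00315) and kept that call in 20 of 20 alternatives. It was 1.98-fold lower in diestrus than in estrus (log2 -0.99 ± 0.26, adjusted p 0.0139), a call lost without estrus replicate 4 (adjusted p 0.0561) or diestrus replicate 4 (0.0666). Its level in metestrus was 2.03-fold that in proestrus (adjusted p 0.0498), a call lost in 15 of 20 alternatives, among them the fit without metestrus replicate 7 (adjusted p 0.161). The macrophage list, which was highest in estrus as well, and the Il6ra level came from the same tissue, and how much of Il6ra lay in macrophages was not tested. The antisense gene Gm42809, with 242 exonic bases shared with Il6ra, was not analysed here.

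Lifr (chromosome 15, 7090614 to 7197489), the LIF binding chain, had its highest mean in metestrus and its lowest in diestrus. It was at 196, 213 and 176 CPM in proestrus, 215, 204 and 203 in estrus, 240, 217 and 252 in metestrus and 174, 157 and 151 in diestrus. The diestrus uteri were below all others (174 against 176 CPM at the closest), and the metestrus uteri were above all others (217 against 215 CPM). Metestrus did not differ past the threshold from estrus (log2 0.19 ± 0.12, adjusted p 0.376) or from proestrus (log2 0.28 ± 0.12, adjusted p 0.214). The F test passed (adjusted p 0.0254), and diestrus was 1.29-fold lower than estrus (log2 -0.37 ± 0.12, adjusted p 0.0447), but the latter call was lost in 13 of 21 alternatives (adjusted p up to 0.211) and the F call in 4 of 19, with library totals, with no filter and without diestrus replicate 4 or 5 (0.078 to 0.0917). The step from metestrus to diestrus was the widest in mean level, at 236 ± 18.1 against 160 ± 12.2 CPM (SD, n = 3), with a log2 change of -0.56 ± 0.12 and an adjusted p of 0.0854.

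Il6st (chromosome 13, 112464070 to 112510086), the gp130 chain that LIF, oncostatin M and interleukin 6 receptors share, was at 253, 282 and 286 CPM in proestrus, 305, 268 and 321 in estrus, 288, 317 and 298 in metestrus and 291, 308 and 218 in diestrus. The 4 stage means lay between 272 and 301 CPM, and the stages overlapped except that the metestrus uteri were all above the proestrus uteri. No difference was detected (F test adjusted p 0.734, and 0.59 to 0.927 over the alternatives). Per uterus, the log2 ratio of Osmr to Lifr was -4.63 ± 0.26 in proestrus, -2.94 ± 0.39 in estrus, -4.4 ± 0.71 in metestrus and -5.06 ± 0.21 in diestrus (mean ± SD, n = 3). All 3 estrus ratios were above the 9 others, and no test was run on them.

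Stat3 (chromosome 11, 100885098 to 100939540), the transcription factor downstream of all these receptors, was at 178, 163 and 161 CPM in proestrus, 213, 222 and 202 in estrus, 140, 141 and 190 in metestrus and 108, 178 and 84.9 in diestrus. Every estrus uterus was above every other uterus, and diestrus replicate 4 lay far above the other diestrus uteri. The F test did not pass (adjusted p 0.0828). It did without diestrus replicate 4 (0.00611), with DESeq2 (0.0478), with limma-voom (0.0485) and with no filter (0.0388). In the contrasts, Stat3 was 1.71-fold lower in diestrus than in estrus (log2 -0.78 ± 0.22, adjusted p 0.0207), a call lost in 5 of 21 alternatives, namely with counts scaled from TPM (0.0577) and without estrus replicate 3 (0.052) or 4 (0.0733) or diestrus replicate 3 (0.0832) or 5 (0.0818). Stat3 shares 72 exonic bases with Stat5a on the other strand, and since the use of strand was not given in the sources used here, reads there could belong to either. The level of Stat5a was 9.83 to 18.1 CPM as stage means.

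The 3 suppressors did not move together. Socs2 (chromosome 10, 95385362 to 95417180) was at 112, 93.8 and 162 CPM in proestrus, 69.3, 75.5 and 48.5 in estrus, 69, 63.8 and 84.7 in metestrus and 81.3, 51.4 and 44.7 in diestrus. The proestrus uteri were all above the 9 others, which overlapped. Socs2 fell 1.91-fold from proestrus to estrus (log2 -0.93 ± 0.25, adjusted p 0.0221) and was 2.07-fold higher in proestrus than in diestrus (log2 1.05 ± 0.25, adjusted p 0.0187). Both calls and the F call (adjusted p 0.0191) rested on proestrus replicate 3, the highest uterus: without it the adjusted p-values were 0.109, 0.0965 and 0.128. The fall into estrus was also lost without estrus replicate 3 (0.0503) or 5 (0.0925), and the difference from diestrus without diestrus replicate 4 (0.0861) or 5 (0.0835).

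Socs3 (chromosome 11, 117966079 to 117970047), the suppressor that binds gp130 receptors and holds the promoter match shown above, was at 12, 9.16 and 12.7 CPM in proestrus, 16.7, 20.6 and 12.8 in estrus, 9.34, 19.6 and 13.7 in metestrus and 14.5, 12.9 and 8.49 in diestrus. The estrus uteri lay above the proestrus uteri, narrowly at the closest, and overlapped with the other stages. No difference was detected (F test adjusted p 0.47, and 0.295 to 0.784 over the alternatives) on 63 to 91 counts per stage. The estimated change from proestrus to estrus was 0.55 ± 0.32 on the log2 scale.

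Cish (chromosome 9, 107296026 to 107302784), with 2 promoter matches, was at 5.13, 11.9 and 9.1 CPM in proestrus, 21, 16 and 15.1 in estrus, 5.71, 10.7 and 10.7 in metestrus and 6.48, 12.9 and 10.8 in diestrus. Every estrus uterus was above every other uterus, and the other 3 stages overlapped. The differences did not pass the threshold over all genes, with an adjusted p of 0.117 in the F test (0.099 to 0.362 over the alternatives) and log2 changes of 0.98 ± 0.36 into estrus (adjusted p 0.0748) and -0.94 ± 0.36 out of it (0.126). Cish overlaps the antisense genes Gm17040, which was at 0 CPM in every stage, and Gm17041, which was not analysed here.

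Pim1 (chromosome 17, 29490753 to 29496112) followed the stage most closely of all members. It was at 102, 77.6 and 97.9 CPM in proestrus, 172, 189 and 193 in estrus, 74.7, 58.7 and 56 in metestrus and 39.9, 32.6 and 42.4 in diestrus. The 4 stages did not overlap with one another. Pim1 rose 2-fold from proestrus to estrus (log2 1 ± 0.15, adjusted p 0.00115), fell 2.92-fold to metestrus (log2 -1.55 ± 0.16, adjusted p 0.000153) and was 4.83-fold lower in diestrus than in estrus (log2 -2.27 ± 0.16, adjusted p 3.34e-06). The return from diestrus to proestrus was a 2.41-fold rise (log2 1.27 ± 0.16, adjusted p 0.000434). The F test gave an adjusted p of 1.1e-05, and each of these 5 calls held in every alternative run. The steps from metestrus to diestrus (log2 -0.72 ± 0.16, adjusted p 0.0858) and from proestrus to metestrus (log2 -0.55 ± 0.16, adjusted p 0.0689) did not pass. The epithelial marker list was high in proestrus and estrus and low in metestrus and diestrus in the same uteri; its part in the Pim1 level was not tested. The antisense gene Gm26885, with 488 shared exonic bases, was not analysed here.

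Read by comparison, 4 of 9 members changed from proestrus to estrus: Osmr, Il6ra and Pim1 rose and Socs2 fell, where 9.67% of all genes rose and 7.46% fell. From estrus to metestrus Osmr and Pim1 fell and no member rose, against 4.73% and 2.83% of all genes. From metestrus to diestrus 0 of 9 members passed in edgeR, where 0.133% of genes rose and 0.0913% fell. The unadjusted edgeR p was 0.000493 for Lifr, 0.000643 for Pim1 and 0.00455 for Osmr, with lower estimates in diestrus. DESeq2 called 2 members there. The shares of all genes at such an unadjusted p or in DESeq2 are not given here, so neither has a background to be read against. From diestrus to proestrus Pim1 and Socs2 rose and no member fell, against 4.62% and 3.91%. Between the opposite stages, Il6ra was higher in metestrus than in proestrus and no member lower, against 2.49% and 1.82%, and in diestrus 5 of 9 members were lower than in estrus and none higher, against 13% and 9.72%. The median log2 change of the 9 members was 0.55 into estrus and -0.78 from estrus to diestrus, and that of all genes was 0.02 and 0. The comparisons share uteri and are not independent of each other. Since the members were chosen with earlier results of these data known, their counts and medians beside all genes are a description only.

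**Figure D2:**
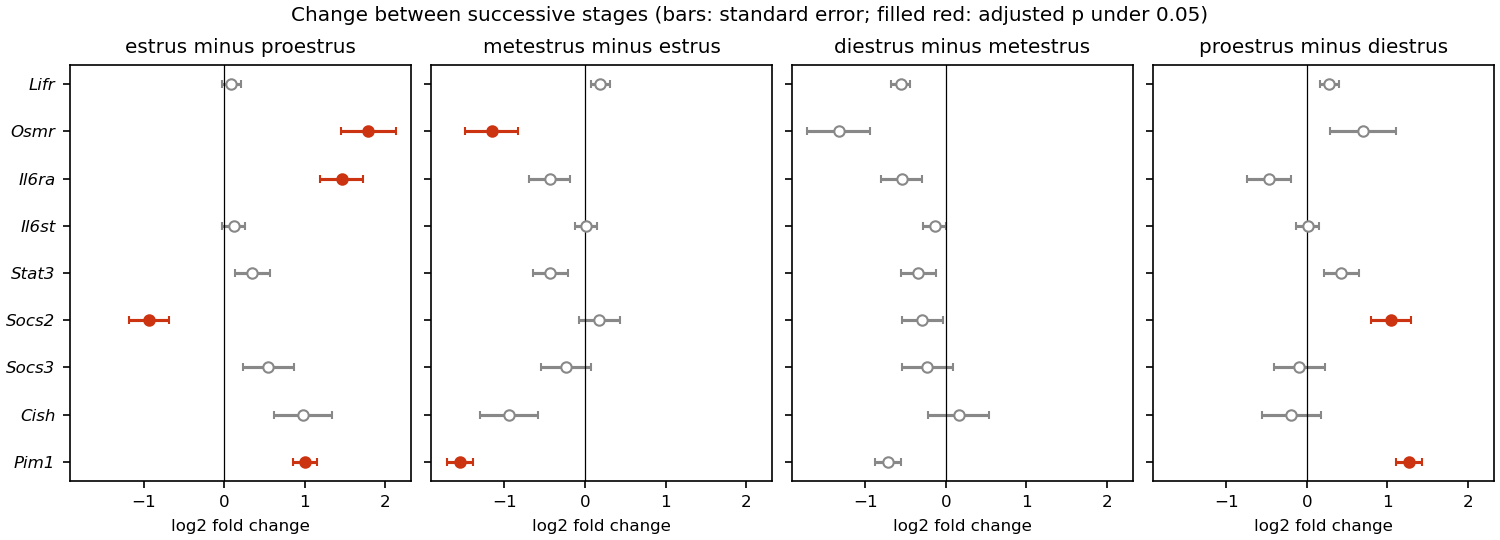
Log2 fold change (horizontal axis) of the 9 tested genes between successive stages, with bars of 1 standard error; filled red points had an adjusted p under 0.05. Osmr, Il6ra and Pim1 lie to the right and Socs2 to the left of 0 from proestrus to estrus, and no point is filled from metestrus to diestrus.

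The counts of a gene were divided over its transcripts by the authors' estimate, which can tell forms apart by a 3' tag only where their 3' ends differ. Of the counts of each gene, 99.9% fell on Il6st-203, 97.7% on Lifr-203, 97.4% on Osmr-201, 97% on Cish-204, 94.5% on Pim1-207 and 100% on Socs3-201. The ends of Pim1-207 and Pim1-201 nearly coincide, so that the division between them is an estimate. Stat3, Il6ra and Socs2 divided their counts over several transcripts, and 7 of these with 10% to 90% of the gene were tested. For Stat3, the share of Stat3-203, which ends upstream of the longest form, was 16.6%, 21.1% and 12.9% in proestrus, 3.09%, 24.5% and 27.8% in estrus, 34.1%, 36.6% and 48% in metestrus and 30.5%, 32.8% and 31.8% in diestrus. All metestrus and diestrus uteri lay above all proestrus and estrus uteri. The exact permutation p was 0.0183, which became 0.128 after Benjamini-Hochberg adjustment over the 7 transcripts; on shares of TPM the unadjusted exact permutation p was 0.00864. Stat3-202, the form with the most distal end, held 67% ± 3.56, 64.3% ± 13.1, 46.1% ± 8.47 and 53.1% ± 3.16 of the counts from proestrus to diestrus (SD, n = 3; exact permutation p 0.0373, adjusted 0.131, and 0.231 unadjusted on shares of TPM), and its drop from proestrus to metestrus was 20.9 percentage points in counts and 10.5 in TPM. Stat3-205, a form with a retained intron, kept 12.9% to 15.1% as stage means. The part of the exonic bases shared with Stat5a in these Stat3 shares was not tested. For Il6ra, Il6ra-202, with the distal end, held 54.8% ± 5.92 in estrus and 65.6% to 71.7% in the other stages (exact permutation p 0.295). Socs2-201 and Socs2-214 have the same 3' end, so that their division is an estimate, and neither share differed (exact permutation p 0.999 and 0.99). None of the 7 passed after adjustment.

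**Figure D3:**
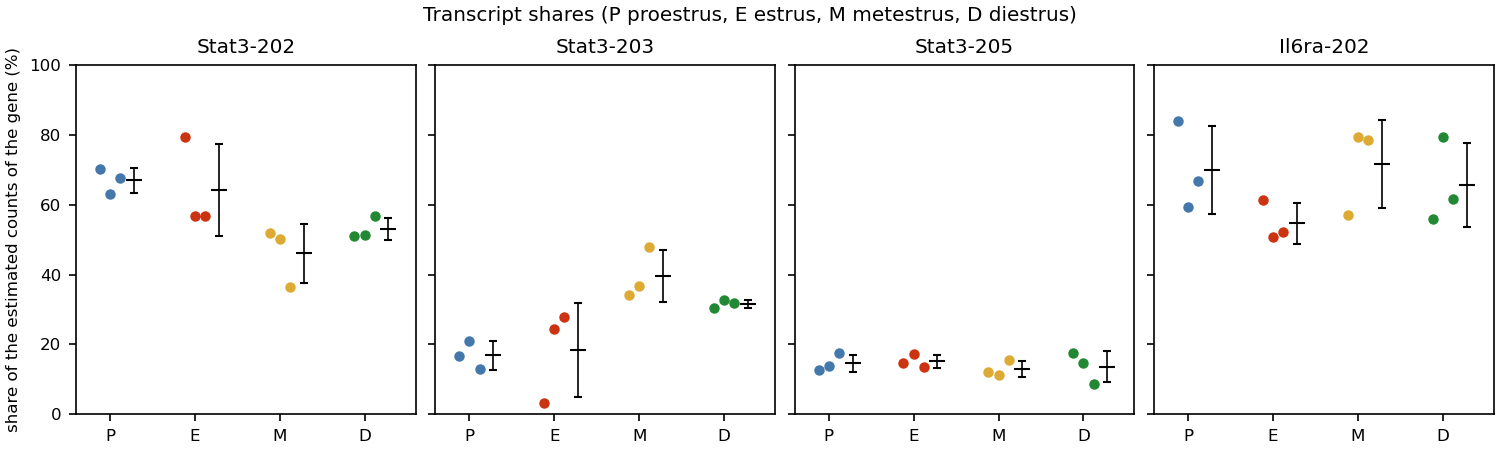
Share of the estimated counts of the gene (percent, vertical axis) on 3 Stat3 transcripts and on Il6ra-202 in each uterus, by stage; points are uteri and the black mark with its bar is the mean ± SD of 3. Stat3-203 lies between 30.5% and 48% in metestrus and diestrus and between 3.09% and 27.8% in proestrus and estrus.

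Around the members, 61 further genes of the pathway were listed and 45 were tested, of which 15 passed the F test against 23.2% of all genes. This list, too, was chosen with earlier results of these data known. None of the 8 other ligands passed the filter. Il6, Cntf and Il31 were at 0 in every uterus, Osm was at 0 to 1.72 CPM and Il27 at 0 to 1.08 CPM. Stage means ran from 0.165 to 2.23 CPM for Il11, from 1.96 CPM in diestrus to 4.73 CPM in estrus for Clcf1 and from 1.57 CPM in metestrus to 4.25 CPM in diestrus for Ctf1. In estrus, where Osmr was highest, its ligand gene Osm was at 0.619, 1.72 and 0 CPM, which is at or near the limit of detection.

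Among the other receptor chains 1 of 3 tested passed, the leptin receptor Lepr, with 14.8 ± 2.65 CPM in proestrus, 24.7 ± 0.67 in estrus, 37.7 ± 14.1 in metestrus and 21.7 ± 7.74 in diestrus (SD, n = 3, as below). Of the kinases, Jak1 and Jak2 passed out of 4. Both lists are short, and 23.2% of all genes tested passed. Jak1, which binds gp130, was at 135 ± 3.04, 143 ± 9.65, 192 ± 40.6 and 191 ± 12.4 CPM from proestrus to diestrus. Of the STAT factors beside Stat3, Stat2 and Stat5a were among those that passed. Stat2, a factor of the interferon response, was at 13.3 ± 0.735 CPM in proestrus, 29 ± 10.2 in estrus, 24.6 ± 8.01 in metestrus and 9.96 ± 2.09 in diestrus, and rose by 1.13 ± 0.3 on the log2 scale into estrus (adjusted p 0.0215). Its estrus uteri lay above all proestrus and diestrus uteri.

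Of the 13 other inhibitors, 1 passed the F test, against 23.2% of all genes tested. Socs1, which blocks JAK kinases directly, was at 19.4, 7.55 and 11.7 CPM in proestrus, 1.86, 4.58 and 2.29 in estrus, 4.67, 8.21 and 10.7 in metestrus and 6.48, 9.89 and 8.49 in diestrus. All estrus uteri were below all others, but estrus replicate 4 (4.58 CPM, 8 counts) came close to metestrus replicate 5 (4.67 CPM, 9 counts). The estrus values rest on 16 counts. Socs1 fell by 2.12 ± 0.48 on the log2 scale into estrus (adjusted p 0.00936) and was higher in diestrus than in estrus (log2 1.5 ± 0.5, adjusted p 0.044). The drop into estrus was thus called for Socs1 and Socs2 and not for Socs3 or Cish, whose estimates were above 0; the differences between these genes were not tested.

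Of 20 listed STAT3 targets other than the members, 8 passed the F test, against 23.2% of all genes tested, and they went both ways. Lrg1, a secreted glycoprotein of the acute phase, was at 21.1, 30.2 and 25.9 CPM in proestrus, 79.8, 203 and 165 in estrus, 11.9, 18.3 and 43.5 in metestrus and 3.49, 11.9 and 2.26 in diestrus. Every estrus uterus was above every other, and Lrg1 rose into estrus (log2 2.53 ± 0.45, adjusted p 0.00266) and was lower in diestrus than in estrus (log2 -4.62 ± 0.54, adjusted p 8.51e-05). Cebpb, a transcription factor of epithelial and decidual cells, was at 110 ± 11.2, 137 ± 15.4, 73.5 ± 11.7 and 37.6 ± 7.27 CPM and was the only listed gene with a call from metestrus to diestrus (log2 -0.97 ± 0.17, adjusted p 0.0443). No listed gene passed there when any library other than metestrus replicate 6 or diestrus replicate 3 was left out. Its relative Cebpd was at 37.6 ± 3.88, 125 ± 20.4, 78.2 ± 52.7 and 37.2 ± 18.4 CPM, with metestrus replicate 7 at 139 CPM against 45.1 and 50.5 in the other metestrus uteri.

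The interferon factor Irf1 was at 24.5 ± 8.85, 44.1 ± 5.02, 32.5 ± 10.5 and 19.5 ± 4.21 CPM, and the immediate early gene Junb at 12.2 ± 2.19, 18.6 ± 1.36, 11.7 ± 3.42 and 7.56 ± 1.17 CPM. Il4ra, the interleukin 4 receptor chain, was highest in proestrus, at 122 ± 20.8 CPM against 43.1 ± 13.2 in diestrus. Lowest in estrus were Ccnd1, the G1 cyclin D1, at 137 ± 5.27 CPM in proestrus and 50.8 ± 12.4 in estrus (log2 -1.43 ± 0.22, adjusted p 0.00113), and Hif1a, the hypoxia factor, at 202 ± 23.7 and 105 ± 10.2 CPM (log2 -0.94 ± 0.14, adjusted p 0.00108). From estrus to diestrus, 9 of the 20 targets passed, 7 lower and 2 higher, against 13% and 9.72% of all genes.

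**Figure D4:**
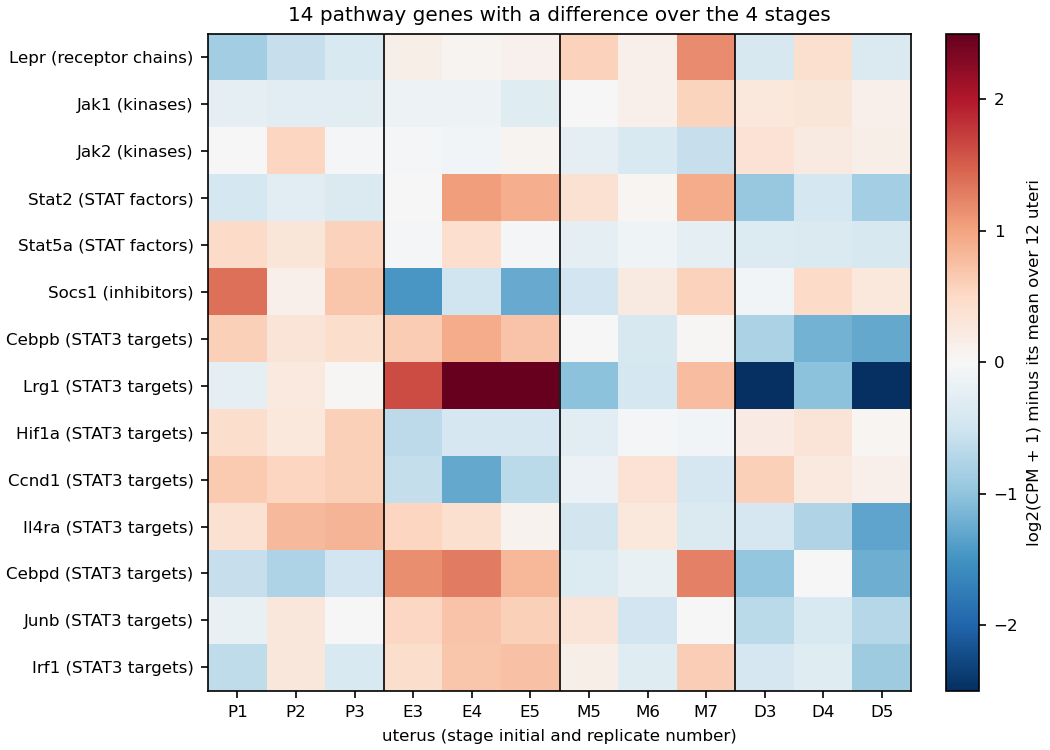
Log2(CPM + 1) of 14 pathway genes that passed the F test, minus its mean over the 12 uteri (color, cut at 2.5 in either direction), with genes in rows by role and uteri in columns by stage. Lrg1 and Cebpd are high in the estrus columns and in metestrus replicate 7, and Socs1, Ccnd1 and Hif1a are low in the estrus columns.

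For each member with a stage difference, the 3 genes closest to it were sought among 9439 genes with a mean of at least 10 CPM, by Pearson's r of log2 CPM over the 12 uteri. Those r values are a description, since genes of 1 library share its depth and cell mixture. Closest to Pim1 were Cdkn1a, an inhibitor of cell division (r 0.98), the epithelial mucin Muc4 (0.971) and the stress gene Ier3 (0.967), all with their highest mean in estrus and their lowest in diestrus. Closest to Osmr were the interferon-induced Ifi47 (0.946), the growth factor gene Vegfd (0.943) and Btg1 (0.942), and closest to Il6ra were the immune checkpoint gene Vsir (0.958), Akap13 (0.949) and Crebrf (0.947). Socs2 was closest to Ampd3 (0.906), Rybp (0.896) and Pou2f1 (0.881), all with their highest mean in proestrus. Lifr was closest to Serpinb9 (0.884), Ccdc184 (0.866) and 2900026A02Rik (0.859).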

How the data were processed

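Whole uteri of 12 mice, 3 per estrous stage, were profiled by 3' TagSeq, and each was placed in its group by its stage label. The authors deposited 1 table per sample of estimated counts and TPM for 119414 transcripts, per the file headers; kallisto, FastQC and DESeq2 are named in the submitters' processing notes. The transcript set, the options and the use of strand are not given in the sources used here. TPM, as deposited by the authors, served for 1 alternative and for transcript shares only.

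Transcripts were matched by identifier without version to GENCODE M21 (GRCm38), which need not be the authors' annotation: 116640 (97.68%) matched, and the rest, with 0.619% to 0.774% of the counts per library, were left out. Estimated counts were summed per gene and rounded. Depth was 1652841 to 2200563 per library. No molecular identifiers were described, so intervals and floors cover counting error only. None of the pairs of libraries within a stage agreed within sampling noise.

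Genes were filtered with filterByExpr by stage (12052 kept), scaled with TMM (factors 0.908 to 1.05) and tested in edgeR 4.0.16 (R 4.3.3) by the quasi-likelihood F test over the stages and by 6 two-sided contrasts, with all 12 samples in the fit (coefficient of biological variation 20.6%). P-values were adjusted by Benjamini-Hochberg over all tested genes, and an adjusted p under 0.05 counted as a difference. A fold is 2 to the power of the fitted log2 change. The standard error of a log2 change was derived as its absolute value divided by the square root of the F statistic of its contrast. The script was tested on simulated data. Shares and Lif were tested by exact permutation over all partitions of the uteri into groups of 3 (Python 3.11.15). Alternatives were other scalings, DESeq2 1.42.0, limma-voom (limma 3.58.1), other filters, counts scaled from TPM, each library left out and pairs of stages alone.

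The members and lists were chosen with earlier results of these data known. Named were all members, every listed ligand, each listed pathway gene that passed the F test (values for the 12 with the smallest p) and the 3 genes most like each member that passed. One listed pathway gene that passed is counted but not reported here. Exceptions chosen after their values were seen are the values of Socs1 and the call-level p-values of the metestrus to diestrus step.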

Additional observations from a re-analysis of the deposited data

How the results depend on the processing

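No log2 change of a member that passed reversed in any alternative run. The number of members with a stage difference was 5, and 4 to 5 when any 1 library was left out. Out of 9 members, 4 changed from proestrus to estrus (3 to 4 with a library left out), 2 from estrus to metestrus (1 to 2), 0 from metestrus to diestrus (0 to 1), 2 from diestrus to proestrus (1 to 2), 1 between proestrus and metestrus (0 to 1) and 5 between estrus and diestrus (2 to 5). From estrus to metestrus the count was 1 with DESeq2, with a mean of at least 50 counts, with counts scaled from TPM and with the 2 stages alone. From metestrus to diestrus it was 2 with DESeq2 and 1 with no filter and with a mean of at least 50 counts. Between proestrus and metestrus it was 0 with DESeq2 size factors, library totals, limma-voom, counts scaled from TPM and the 2 stages alone, and 2 with no filter. Between estrus and diestrus it was 3 with counts scaled from TPM. The cause was not tested.

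Of the pathway list, 15 genes passed the F test (9 to 18 with a library left out) and 9 with counts scaled from TPM. The contrasts held 8 (6 to 9), 3 (2 to 7), 1 (0 to 3), 6 (2 to 6), 3 (0 to 10) and 12 (10 to 18) genes in the same order. From metestrus to diestrus the list had 0 with library totals, limma-voom, counts scaled from TPM and the 2 stages alone, 2 with DESeq2 and 4 with no filter. From diestrus to proestrus it had 2 with counts scaled from TPM. Between proestrus and metestrus it had 6 with DESeq2, 8 with no filter and 0 with counts scaled from TPM and with the 2 stages alone. The difference in share of Socs2-201 between diestrus and proestrus was 1.69 percentage points, and -8.1 (without proestrus replicate 2) to 8.42 with a library left out, with -0.257 without diestrus replicate 3. That of Socs2-214 between estrus and diestrus was 4.69, and -0.371 (without estrus replicate 3) to 12.7.

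Estrus and diestrus share the numbers 3, 4 and 5. Deviations of same-numbered uteri from their stage means correlated at -0.153, 0.00785 and -0.0273, and those of uteri with unlike numbers at -0.0744 to 0.114. A pairing was thus not detected, but 3 uteri per stage are too few to decide whether the numbers pair them. Numbers shared with proestrus or metestrus were not checked. With the replicate block on these 6 uteri, 4 members and 17 pathway genes differed between estrus and diestrus, and Lifr was lost (log2 -0.36, adjusted p 0.0799). Of the members, Lif, Cish, Socs3 and Osmr rest on the fewest counts, so that depth limits their values most.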
